A study of Mus musculus with 2 samples.

Results

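The genes described here were Tnf and 9 genes of its signalling and feedback: the receptors Tnfrsf1a and Tnfrsf1b, the NF-kB subunit gene Nfkb1, the feedback genes Nfkbia, Nfkbiz and Tnfaip3, and the cytokine genes Il6, Il10 and Il12b. They were chosen by symbol, 10 of the 33696 genes in the deposited matrices, and each had 1 row. The data were 2 single-cell RNA-seq libraries of live CD45+ cells from the thalamus of C57B6/J mice, all with a cortical ablation injury (CAI). One library came from mice injected with control Ab and the other from mice injected with anti-CD9 Ab (an antibody to the tetraspanin CD9), both into the thalamus from day 7 to day 19 after injury at 1.0 μg/μl, with cells collected on day 21. In the study's methods each thalamus library pooled 4 mice, a number not given again for the antibody groups, and no uninjured library was analysed here.

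TNF is a cytokine made by activated macrophages, microglia and T cells. It binds TNFR1 (Tnfrsf1a), found on most cells, and TNFR2 (Tnfrsf1b), found mainly on immune cells, and both receptors lead to NF-kB. In resting cells NF-kB dimers, such as p50 (made from Nfkb1) with RelA, are held in the cytoplasm by IκBα (Nfkbia). Once released they switch on cytokine genes and also the genes of their own inhibitors, so that Nfkbia and Tnfaip3 (encoding the ubiquitin-editing enzyme A20) are common mRNA readouts of the pathway. After brain injury, microglia are a known source of TNF. The libraries measure mRNA only, not cytokine release or the location of NF-kB.

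NF-kB sites vary around a short consensus, which the letters GGNNTTTCC and GGGANTTCC describe in part. Both were searched on both strands in RefSeq promoter sequences (GRCm38.p6, 250 bases before to 50 after each start), which were found for 7 of the 10 genes. Nfkbia, Tnfaip3 and Il6 held a match in 1 promoter each, while the promoters of Tnf, Tnfrsf1a, Tnfrsf1b and Il12b held none in this window. Of all 32851 promoters in the table, 5.82% held the first motif, 1.68% the second and 7.09% either. The stretches around the matches are shown because these 3 genes are the ones with a match, with the matching letters in capitals and each sequence on the strand of its gene. The last match of Tnfaip3 fits both motifs with the same letters, and the first match of each gene fits GGNNTTTCC.
Nfkbia (chr12:55492648-55492845, minus strand): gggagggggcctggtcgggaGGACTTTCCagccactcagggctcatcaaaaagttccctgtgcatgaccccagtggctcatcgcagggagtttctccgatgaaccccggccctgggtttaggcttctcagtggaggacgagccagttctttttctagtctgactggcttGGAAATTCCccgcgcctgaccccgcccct
Tnfaip3 (chr10:19015394-19015454, minus strand): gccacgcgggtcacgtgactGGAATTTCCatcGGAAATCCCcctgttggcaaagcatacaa
Il6 (chr5:30013051-30013099, plus strand): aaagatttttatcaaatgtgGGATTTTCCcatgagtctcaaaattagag
The matches began 178 and 29 bases before the start site in Nfkbia, 24 and 12 bases before it in Tnfaip3, and 43 bases before it in Il6. A match is a description of the sequence and not a bound site.

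After the quality limits, 7467 cells were left in the control Ab library and 9161 in the anti-CD9 Ab library, whose median cells held 1880 and 1419 UMIs (unique transcript counts). Clusters were named from marker genes, and the members and other NF-kB genes were left out of the clustering. Of 23 clusters, 16 took a name and formed 11 classes. Class sizes differed between the libraries: 1956 and 862 microglia-like cells (control Ab and anti-CD9 Ab, respectively), 212 and 1179 macrophage-like cells, 65 and 2821 neutrophil-like cells, and 2807 and 1011 T cell-like cells. The macrophage-like class was a single cluster, led by F13a1, Gm56663 and Saa3, in which 6 of 7 monocyte and 5 of 8 macrophage markers were up, so that its name covers monocytes and macrophages together. Astrocyte-like (429 and 78) and oligodendrocyte-like (306 and 93) cells, which CD45 does not mark, were also present. Levels are summed UMIs divided by all UMIs of the class in that library and scaled to a fixed total (CPM), with exact Poisson 95% intervals, and log2 ratios (anti-CD9 Ab over control Ab) have exact binomial 95% intervals. All intervals cover counting error only. Each antibody had a single library, so nothing could be tested, and the antibody cannot be told apart from the pool of mice or the library. A summed level also does not separate fewer expressing cells from less RNA per cell.

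Tnf, the ligand, was highest in T cell-like cells with control Ab and in neutrophil-like cells with anti-CD9 Ab. With control Ab the level was 270 CPM (256 to 285) in T cell-like, 94.8 CPM (38.1 to 195) in neutrophil-like, 48.1 CPM (44.0 to 52.4) in microglia-like and 40.4 CPM (30.6 to 52.4) in macrophage-like cells. With anti-CD9 Ab it was 198 CPM (182 to 215), 827 CPM (797 to 858), 105 CPM (94.2 to 117) and 106 CPM (98.1 to 114) in the same order. The level was thus higher with anti-CD9 Ab in the 3 myeloid classes and lower in T cell-like cells. Among neighbours in the order of the 8 classes with at least 50 cells in each library, only the intervals of T cell-like and neutrophil-like cells were apart with control Ab. Neighbours with overlapping intervals can still differ. With anti-CD9 Ab, the intervals were apart from neutrophil-like to T cell-like and on to macrophage-like cells. They were also apart from microglia-like to conventional dendritic cell-like cells, while those of macrophage-like and microglia-like cells overlapped.

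**Figure D1:**
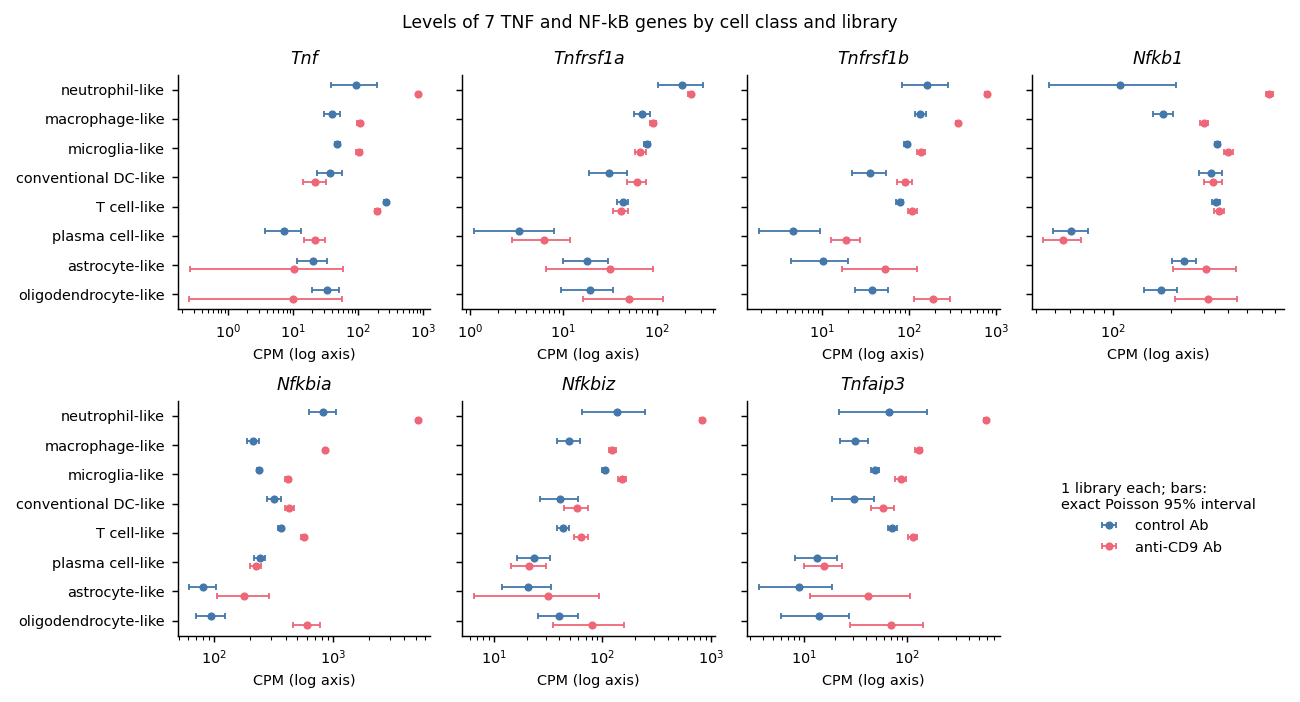
Levels of 7 of the genes (CPM, log axis) in the 8 classes with at least 50 cells in each library, with control Ab in blue and anti-CD9 Ab in red; points are single libraries and bars are exact Poisson 95% intervals. Nfkbia in neutrophil-like cells goes from 827 to 5198 CPM, and Tnf in T cell-like cells from 270 to 198 CPM.

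The log2 ratio of Tnf was 3.12 (2.08 to 4.44) in neutrophil-like, 1.39 (1.00 to 1.81) in macrophage-like and 1.13 (0.93 to 1.34) in microglia-like cells. In T cell-like cells it was −0.45 (−0.59 to −0.30). The microglia-like ratio did not hold when the libraries were clustered without integration (−0.06, −0.60 to 0.43), as described further on. The neutrophil-like value rested on 7 Tnf UMIs with control Ab, against 2866 with anti-CD9 Ab. In astrocyte-like cells, which served as background, Tnf was at 20.6 CPM (11.8 to 33.4) and 10.5 CPM (0.267 to 58.7), and in plasma cell-like cells at 7.41 CPM (3.70 to 13.3) and 21.9 CPM (15.0 to 31.0). Oligodendrocyte-like cells had 33.0 CPM (19.85 to 51.5) and 10.1 CPM (0.255 to 56.1). With control Ab their interval overlapped those of macrophage-like and microglia-like cells, so Tnf in these 2 classes was near this background.

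Within classes, the Tnf difference was uneven between clusters. Neutrophil-like cluster 1, led by Cxcl2, Ccl4 and Rsad2, held 2649 of the 2866 Tnf UMIs of neutrophil-like cells with anti-CD9 Ab, at 1257 CPM against 44.4 CPM with control Ab (1 UMI in 23 cells), a ratio of 4.82 (2.35 to 10.13). Cluster 5, led by Retnlg, S100a8 and S100a9, was at 117 CPM with control Ab and 160 CPM with anti-CD9 Ab, with a ratio of 0.45 (−0.70 to 1.91). Most neutrophil-like Tnf UMIs with anti-CD9 Ab therefore lay in cluster 1, where 7 of 8 neutrophil and 7 of 8 interferon-responsive markers were up. The wide interval of cluster 5 does not exclude a difference there. In microglia-like cells, cluster 6, led by Lpl, Cst7 and Spp1, had a ratio of 1.56 (1.27 to 1.85) and cluster 2, led by Siglech, P2ry12 and Rapgef5, had 0.76 (0.47 to 1.06).
Among the T cell-like clusters, Tnf was lower beyond counting error in cluster 0, led by Ctla4, Themis and Trac, with 228 and 143 CPM and a ratio of −0.67 (−0.93 to −0.42). The makeup of the class also differed, since the cycling cluster 19, at 98.1 and 86.7 CPM of Tnf (−0.18, −0.93 to 0.63), held 4.18% of the UMIs of the class in the control Ab library but 24.1% with anti-CD9 Ab. Without cluster 19 the class was at 277.5 CPM (263 to 293) and 234 CPM (214 to 255), a ratio of −0.25 (−0.40 to −0.10). Clusters 7 and 8, which express the gamma-delta T cell gene Trdc and Il17a, had the highest Tnf levels of the class. They were at 359 and 359 CPM (0.00, −0.22 to 0.22) and at 314 and 262 CPM (−0.26, −0.70 to 0.15), so that no difference beyond counting error was seen there. An unnamed cluster that held all markers of both T and NK cells, led by Gzma, Nkg7 and Cd8b1, had 137.5 and 39.3 CPM, a ratio of −1.81 (−2.69 to −1.03).

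**Figure D2:**
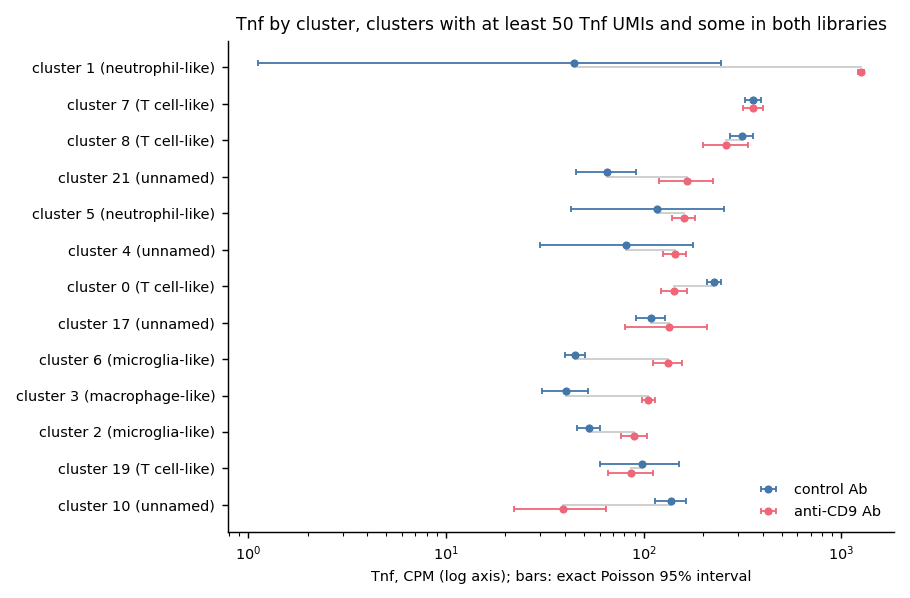
Tnf levels (CPM, log axis) by cluster for clusters with at least 50 Tnf UMIs and some in both libraries, control Ab in blue and anti-CD9 Ab in red, with exact Poisson 95% intervals. Cluster 1 shows the widest gap, from 44.4 to 1257 CPM, while clusters 7 and 8 overlap between libraries.

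The share of cells with a Tnf UMI was compared after thinning each cell to 1000 UMIs. In microglia-like cells it was 4.32% (3.45 to 5.33%) of 1900 cells with control Ab, against 7.84% (6.11 to 9.87%) of 842 cells with anti-CD9 Ab, but without integration the difference was −2.09 percentage points (−4.05 to 1.22). The T cell-like share was 17.8% (16.3 to 19.4%) and 12.9% (10.8 to 15.2%), of 2468 and 942 cells. Without thinning the T cell-like shares were 24.0% and 24.9%, where the median cell held 1555 and 2332 UMIs, and the microglia-like shares 15.1% and 18.3%, where it held 3103 and 3356. In macrophage-like cells the thinned share was 4.76% (2.31 to 8.58%) and 6.55% (5.20 to 8.12%), which overlapped, although the summed level differed. Neutrophil-like cells had a share of 29.4% (27.4 to 31.5%) of 1919 cells with anti-CD9 Ab and 1 of 23 cells (4.35%, 0.110 to 21.95%) with control Ab. As background, 0 of 148 and 2.86% of 140 thinned plasma cell-like cells had a Tnf UMI, the first of which has an upper limit of 2.46%.

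The receptors differed from each other. Tnfrsf1b, encoding TNFR2, was higher with anti-CD9 Ab in each of the 4 main classes: 94.2 and 138 CPM in microglia-like, 135 and 364 CPM in macrophage-like, 163 and 782 CPM in neutrophil-like and 78.5 and 110 CPM in T cell-like cells. The ratios were 0.55 (0.39 to 0.72), 1.43 (1.22 to 1.65), 2.27 (1.46 to 3.22) and 0.49 (0.27 to 0.70), all with intervals above 0. Tnfrsf1a, encoding TNFR1, moved less. It was at 79.5 and 67.2 CPM in microglia-like cells (−0.24, −0.47 to −0.02), at 70.2 and 91.5 CPM in macrophage-like cells (0.38, 0.07 to 0.70) and at 190 and 232 CPM in neutrophil-like cells (0.29, −0.47 to 1.17). T cell-like cells had 43.5 and 41.0 CPM of Tnfrsf1a (−0.08, −0.42 to 0.25). Conventional dendritic cell-like cells had more of both with anti-CD9 Ab, with ratios of 0.99 (0.24 to 1.80) for Tnfrsf1a and 1.32 (0.65 to 2.06) for Tnfrsf1b.

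Nfkb1, which encodes the precursor of the p50 subunit, differed least in T cell-like and microglia-like cells among the 4 main classes. It was at 350 CPM (339 to 362) and 400 CPM (378 to 422) in microglia-like cells, a ratio of 0.19 (0.10 to 0.28), while T cell-like cells had 346 and 359 CPM, a ratio of 0.05 (−0.06 to 0.16). In macrophage-like cells it was higher with anti-CD9 Ab (183 and 298 CPM, 0.70, 0.52 to 0.90), and in neutrophil-like cells it went from the second lowest of the 8 classes (108 CPM, 46.8 to 214) to the highest (654 CPM, 627 to 681). With control Ab the neutrophil-like interval overlapped those of its neighbours in that order.

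Nfkbia, encoding IκBα, was higher with anti-CD9 Ab beyond counting error in each of the 8 classes except plasma cell-like cells. It was at 236 CPM (227 to 246) and 413 CPM (391 to 437) in microglia-like, 212 CPM (189 to 238) and 856 CPM (834 to 879) in macrophage-like, and 362 CPM (345 to 379) and 568 CPM (541 to 597) in T cell-like cells. In neutrophil-like cells it was at 827 CPM (632 to 1062) and 5198 CPM (5122 to 5274). None of these 4 pairs of intervals overlapped. The log2 ratios were 0.81 (0.71 to 0.91), 2.01 (1.85 to 2.19), 0.65 (0.55 to 0.75) and 2.65 (2.29 to 3.04), respectively. Plasma cell-like cells did not differ beyond counting error, at 241 and 223 CPM (−0.11, −0.33 to 0.11). However, 78 of their 326 Nfkbia UMIs with anti-CD9 Ab came from 1 cell, against at most 13 of 358 with control Ab. The ratio without that cell was not worked out. In the cycling T cell-like cluster 19, led by Ube2c, Stmn1 and Birc5, Nfkbia was lower with anti-CD9 Ab (−0.43, −0.75 to −0.11), against 1.48 (1.26 to 1.70) in cluster 7 and 1.75 (1.45 to 2.06) in cluster 8. The neutrophil transcripts of clusters 7 and 19 differed widely between the libraries, as described further on.

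Tnfaip3, encoding A20, and Nfkbiz, encoding the nuclear regulator IκBζ, had the same direction as Nfkbia in the main classes. Tnfaip3 was at 49.1 and 87.3 CPM in microglia-like, 31.2 and 130 CPM in macrophage-like, 67.7 and 592 CPM in neutrophil-like cells, while T cell-like cells had 72.4 and 114 CPM. Its ratios were 0.83 (0.61 to 1.04), 2.06 (1.62 to 2.53), 3.13 (1.90 to 4.75) and 0.66 (0.44 to 0.88). Nfkbiz was at 105 and 152 CPM, 48.9 and 124 CPM, 136 and 824 CPM, and 43.5 and 63.7 CPM in the same order of classes. Its ratios were 0.53 (0.38 to 0.69), 1.34 (0.98 to 1.72), 2.60 (1.72 to 3.67) and 0.55 (0.26 to 0.84). For each feedback gene the ratio was thus above 0 in the 4 classes with the libraries integrated, and the macrophage-like ratio lay above the microglia-like and T cell-like ones with no overlap of intervals. Without integration the microglia-like ratios were 0.21 (0.00 to 0.41) for Nfkbia, 0.22 (−0.26 to 0.67) for Tnfaip3 and −0.14 (−0.50 to 0.21) for Nfkbiz. Tnf and its feedback genes thus had opposite directions in T cell-like cells, before any allowance for the neutrophil transcripts described further on.

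**Figure D3:**
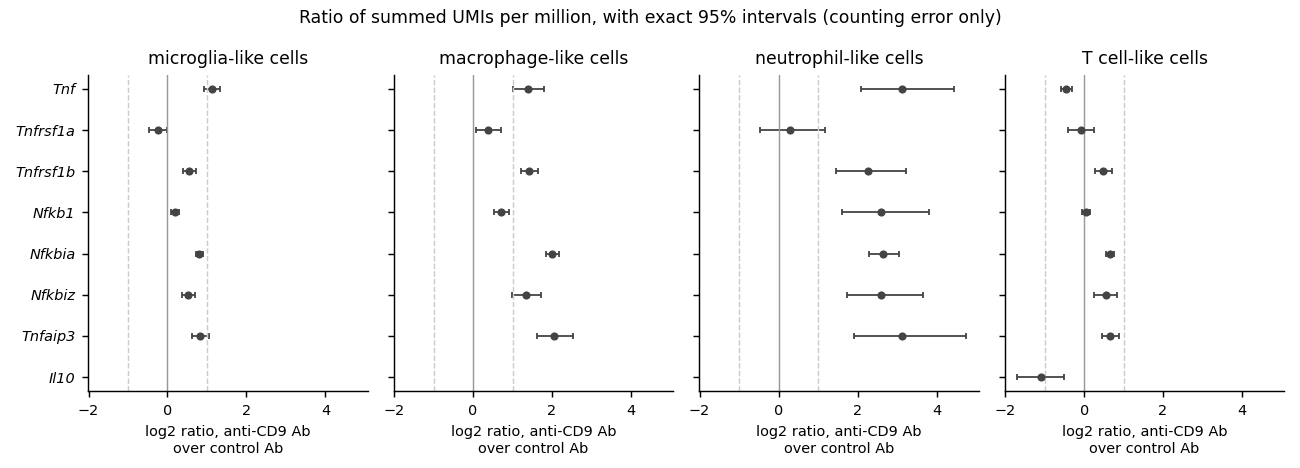
Log2 ratios of summed CPM, anti-CD9 Ab over control Ab, of the genes with at least 50 UMIs in the 4 main classes, with exact 95% intervals for counting error; dashed lines mark 2-fold. Il10 is shown only in T cell-like cells, and Tnf lies at 3.12 in neutrophil-like cells and at −0.45 in T cell-like cells.

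Over the genes with at least 50 UMIs in a class, the counts past 2-fold were read against all genes of that class. In macrophage-like cells 5 of 7 were at least 2-fold higher with anti-CD9 Ab, against 7.99% of all 9046 genes, and 0 were at least 2-fold lower, against 6.77%. In neutrophil-like cells 6 of 8 were higher (12.8% of 5507 genes) and 0 lower (20.1%). In microglia-like cells 1 of 7 was higher (3.46% of 11126 genes) and 0 lower (4.40%), and in T cell-like cells 0 of 8 were higher (3.67% of 9792 genes) and 1 lower (2.50%). The median log2 ratios were 1.39 in macrophage-like, 2.60 in neutrophil-like, 0.55 in microglia-like and 0.27 in T cell-like cells, against −0.03, −0.14, 0.00 and −0.09 over all genes of the same classes. In the neutrophil-like median, Il10 was set to no difference, as described below. Of the 8 neutrophil-like genes, all but Nfkbia (61 UMIs) had 0 to 14 UMIs with control Ab. They passed the limit of 50 UMIs through the anti-CD9 Ab library, so their counts past 2-fold do not support a direction. The same limit applies to the neutrophil-like counts of the other gene lists.

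The microglia-like values depended on how the libraries were joined. Without integration of the libraries, 66.4% of the microglia-like cells with anti-CD9 Ab (572 cells) and 3.94% of those with control Ab (77 cells) fell into 1 cluster, led by Cxcl13, Ccl12 and Crybb1, which had 4 of 10 microglia markers up and stayed unnamed. In these cells Tnf was at 117 CPM (76.0 to 173) with control Ab and 120 CPM (106 to 136) with anti-CD9 Ab, and Nfkbia at 484 CPM (395 to 587) and 440 CPM (412 to 469). These levels of Tnf and Nfkbia did not differ between libraries beyond counting error, while Nfkbiz did, at 103 CPM (64.7 to 156) and 179.5 CPM (162 to 198.5). In the cluster without integration that was led by Lpl, Spp1 and Cst7 (961 and 117 cells), Tnf was at 43.9 CPM (39.3 to 48.8) and 63.2 CPM (43.5 to 88.8), and in the one led by Siglech, P2ry12 and Gm10790 (825 and 87 cells) at 51.5 CPM (43.0 to 61.1) and 8.62 CPM (1.04 to 31.1), the latter from 2 UMIs. Nfkbiz was also lower with anti-CD9 Ab in the Siglech-led cluster, at 130 CPM (117 to 145) and 56.0 CPM (29.8 to 95.8). Over all cells named microglia-like without integration (1959 and 205), the Tnf ratio was −0.06 (−0.60 to 0.43) and the median over the genes was 0.07.

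Neutrophil transcripts were found in all classes of the anti-CD9 Ab library. The sum of S100a8, S100a9 and Retnlg, 3 genes of neutrophils, was 32727 CPM in neutrophil-like cells with anti-CD9 Ab. It was 591 CPM in microglia-like, 459 CPM in macrophage-like, 634 CPM in T cell-like and 4168 CPM in oligodendrocyte-like cells, against 92.3, 196, 157 and 43.4 CPM with control Ab. In conventional dendritic cell-like cells it was lower, at 430 and 324 CPM. In the T cell-like clusters 0, 7, 8 and 19 the sum was 13.2, 76.6, 13.25 and 3057 CPM with control Ab. With anti-CD9 Ab it was 265, 1806, 127 and 89.55 CPM in the same order. Its part in the Tnf and Nfkbia values of these clusters was not tested. Nfkbia in oligodendrocyte-like cells was at 93.7 and 604 CPM, and at the neutrophil ratio of Nfkbia to the 3 genes it would be at 662 CPM with anti-CD9 Ab. In astrocyte-like cells Nfkbia was at 79.8 and 179 CPM, against 159 CPM at that ratio. The counting intervals of both classes (461 to 777 and 104 to 287 CPM) included these values. Tnf in oligodendrocyte-like cells, at 10.1 CPM (0.255 to 56.1), lay below the 105 CPM at its neutrophil ratio. In microglia-like cells the level at that ratio was 93.9 of the 413 CPM, in macrophage-like cells 72.9 of 856 CPM and in T cell-like cells 101 of 568 CPM. For Tnf in microglia-like cells it was 14.9 of 105 CPM. In T cell-like cells it was 16.0 of 63.7 CPM for Nfkbiz, 11.5 of 114 CPM for Tnfaip3 and 15.1 of 110 CPM for Tnfrsf1b. The levels of these 3 genes with control Ab were 43.5, 72.4 and 78.5 CPM, respectively. The neutrophil ratio used here is that of all neutrophil-like cells. With anti-CD9 Ab, cluster 1 alone had 7277 CPM of Nfkbia and 21028 CPM of S100a8, S100a9 and Retnlg, against 5198 and 32727 CPM in the class. At the ratio of cluster 1 the Nfkbia levels given for other classes would be higher. The part of neutrophil RNA in the differences was not tested. Among cells without a UMI of the 3 genes, the Nfkbia ratio was 0.53 in microglia-like, 1.79 in macrophage-like and 0.58 in T cell-like cells, and the Tnf ratio 1.15, 0.93 and −0.49.

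**Figure D4:**
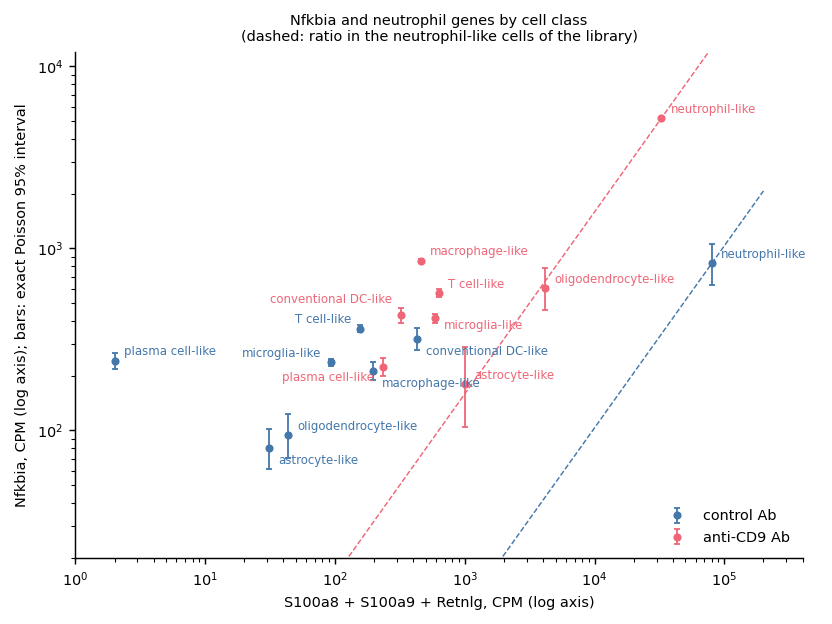
Nfkbia (CPM) against the summed CPM of S100a8, S100a9 and Retnlg in 8 classes, both on log axes, control Ab in blue and anti-CD9 Ab in red, with exact Poisson 95% intervals for Nfkbia; dashed lines give the ratio in the neutrophil-like cells of each library. Oligodendrocyte-like cells with anti-CD9 Ab lie at the line (604 against 662 CPM), while macrophage-like cells lie above it (856 against 72.9 CPM).

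The immediate-early and dissociation genes, a list of 20 that handling of tissue can raise, summed to 3222 and 2357 CPM in microglia-like, 2364 and 2973 CPM in macrophage-like, 3604 and 8848 CPM in neutrophil-like and 2687 and 3168 CPM in T cell-like cells. Of those measured, 2 of 18, 3 of 18, 9 of 16 and 3 of 17 were at least 2-fold higher and 5, 1, 1 and 0 at least 2-fold lower. Over all genes of these classes, 3.46%, 7.99%, 12.8% and 3.67% were higher and 4.40%, 6.77%, 20.1% and 2.50% lower. Egr2 was the lowest in microglia-like (−1.94) and macrophage-like cells (−2.75), Atf3 in neutrophil-like (−1.25) and Fosb in T cell-like cells (−0.75), while Nr4a1 (1.22), Dusp1 (2.30), Nr4a1 (3.06) and Klf2 (1.89) were the highest in the same order of classes. Their part in the members' differences was not tested.

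Cells with a Tnf UMI were compared with cells of the same class and library without one, all thinned to 1000 UMIs. In neutrophil-like cells with anti-CD9 Ab, 95.8% (93.8 to 97.3%) of 565 cells with Tnf had an Nfkbia UMI, against 77.6% (75.2 to 79.8%) of 1354 without. For Tnfaip3 these shares were 52.6% (48.4 to 56.8%) and 28.1% (25.8 to 30.6%). The same order was seen within cluster 1, with 56.2% (51.7 to 60.6%) and 38.4% (34.8 to 42.0%) for Tnfaip3. In cluster 5 the intervals overlapped for Tnfaip3, at 25.4% (15.5 to 37.5%) and 16.0% (13.2 to 19.1%), and for Nfkbiz, at 40.3% (28.5 to 53.0%) and 34.2% (30.5 to 38.1%), but not for Nfkbia, at 82.1% (70.8 to 90.4%) and 62.0% (58.1 to 65.9%). In macrophage-like cells with anti-CD9 Ab, Nfkbia was in 64.9% (53.2 to 75.5%) of 77 cells with Tnf and 42.5% (39.6 to 45.5%) of 1099 without, and Nfkbiz in 26.0% (16.6 to 37.2%) and 10.2% (8.47 to 12.1%). In T cell-like cells the Nfkbia shares were 21.1% (17.4 to 25.3%) of 440 and 22.1% (20.4 to 24.0%) of 2028 with control Ab, and 29.8% (21.8 to 38.7%) of 121 and 29.2% (26.1 to 32.5%) of 821 with anti-CD9 Ab. In macrophage-like cells and neutrophil-like cluster 1 with anti-CD9 Ab, cells with Tnf thus had feedback transcripts more often, and no such difference was seen beyond counting error in T cell-like cells. Predicted doublets were kept and made up 15.7% of the macrophage-like cells and 16.2% of cluster 1 over both libraries. Their part in these shares, and that of neutrophil RNA, was not tested. In microglia-like cells the Nfkbia shares were 23.2% (14.6 to 33.8%) and 18.4% (16.6 to 20.2%) with control Ab and 40.9% (28.95 to 53.7%) and 27.2% (24.1 to 30.5%) with anti-CD9 Ab, with overlapping intervals in both libraries. Nfkbiz (13.4% and 9.30%, then 21.2% and 11.6%) and Tnfaip3 (9.76% and 4.62%, then 13.6% and 6.44%) had the same order. Their intervals also overlapped, which does not show that the shares were alike.

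**Figure D5:**
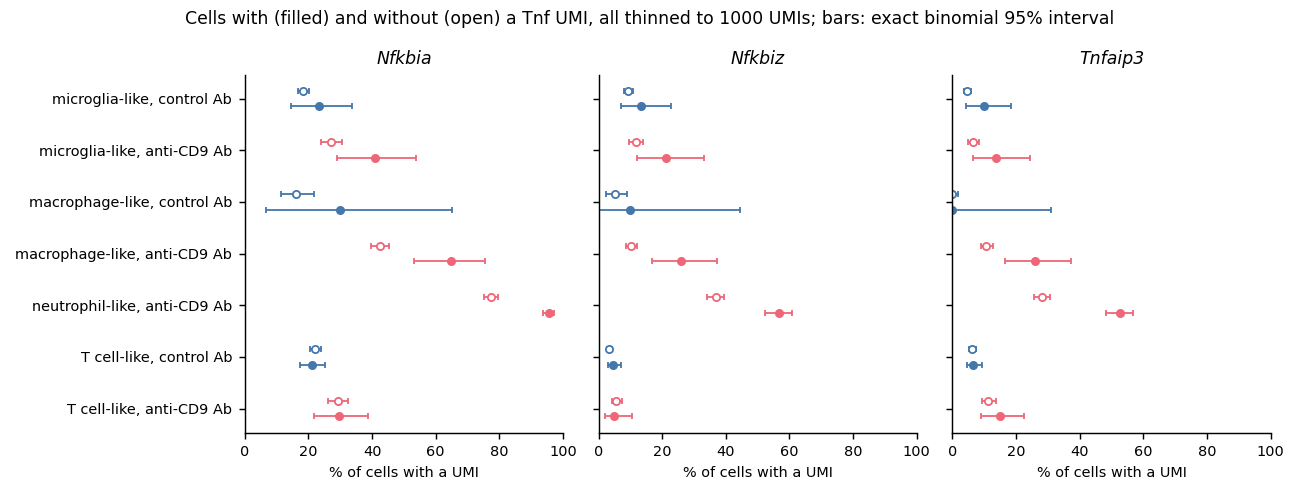
Share of cells (%) with an Nfkbia, Nfkbiz or Tnfaip3 UMI among cells with (filled) and without (open) a Tnf UMI, by class and library, all thinned to 1000 UMIs, with exact binomial 95% intervals; sets with under 10 Tnf cells are left out. Filled and open points are apart in macrophage-like and neutrophil-like cells with anti-CD9 Ab and overlap in T cell-like cells.

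The 3 cytokine genes were sparse. Among the named classes with anti-CD9 Ab, Il12b and Il6 both had their highest level in mature dendritic cell-like cells. Il12b, which encodes the p40 chain shared by IL-12 and IL-23, was highest in mature dendritic cell-like cells, led by Ccr7, Fscn1 and Serpinb6b. There it was at 495 CPM (324 to 726) with control Ab, 26 UMIs in 6 of 16 cells, and at 159 CPM (127 to 198) with anti-CD9 Ab, 81 UMIs in 27 of 162 cells. The ratio was −1.64 (−2.29 to −0.94), and 12 of the 26 UMIs came from 1 cell. In macrophage-like cells, all 35 Il12b UMIs with anti-CD9 Ab came from 1 cell and none were counted with control Ab.
Il10, encoding an anti-inflammatory cytokine, was mainly in T cell-like cells with control Ab, with 119 UMIs (24.4 CPM, 20.2 to 29.2) in 54 cells against 33 UMIs (11.5 CPM, 7.90 to 16.1) in 16 cells with anti-CD9 Ab. The ratio was −1.09 (−1.69 to −0.52). Most of these UMIs were in cluster 0 (111 and 26). Within it, cells with a UMI of Foxp3, the regulatory T cell transcription factor, were at 304 CPM (231 to 393) in 83 cells with control Ab and 136 CPM (72.6 to 233) in 39 cells with anti-CD9 Ab, while cells without one were at 21.5 CPM (16.1 to 28.2) and 12.2 CPM (6.47 to 20.8). The Il10 level was therefore higher in cells with a Foxp3 UMI in both libraries. In both sets it was lower with anti-CD9 Ab. The intervals between antibodies overlapped, but with a Foxp3 UMI only narrowly (lower limit 231 CPM against upper limit 233 CPM). Such an overlap does not show that the levels were alike, and no ratio interval is given for these sets. Tnfrsf1b was also higher in cells with a Foxp3 UMI, at 299 CPM (226 to 387) against 88.9 CPM (77.5 to 101.5) with control Ab and 357 CPM (247 to 499) against 121.5 CPM (101.5 to 144) with anti-CD9 Ab.
In neutrophil-like cells, Il10 had 63 UMIs in 44 cells with anti-CD9 Ab (18.2 CPM, 14.0 to 23.3), of which 59 were in cluster 1. With control Ab no Il10 UMI was counted there, but 3 counts of that small total would be 40.7 CPM, so that no direction can be given. Il6, encoding a pro-inflammatory cytokine, had 34 UMIs in 34 microglia-like cells with control Ab (3.21 CPM, 2.22 to 4.49) and 7 UMIs in 5 cells with anti-CD9 Ab (2.26 CPM, 0.910 to 4.66), a ratio of −0.50 (−1.92 to 0.69). In macrophage-like cells it had 39 UMIs in 23 cells with anti-CD9 Ab (6.01 CPM, 4.27 to 8.22) and none with control Ab, at least 2.83-fold higher against 3 counts. Mature dendritic cell-like cells had 24 Il6 UMIs in 20 cells with anti-CD9 Ab (47.2 CPM) and none with control Ab, where 3 counts would be 57.1 CPM, so that no fold is given. Neutrophil-like cells held no Il6 or Il12b UMI in either library, with upper limits of 49.98 CPM with control Ab and 1.065 CPM with anti-CD9 Ab.

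Other genes of the pathway, a list of 88 besides the members, leaned the same way. In microglia-like cells 23 of 78 measured genes were at least 2-fold higher and 1 lower, in macrophage-like cells 34 of 82 and 2, in neutrophil-like cells 40 of 76 and 5, and in T cell-like cells 13 of 76 and 0. The percentages of all genes given above apply to these counts. Most neutrophil-like genes passed the UMI limit through the anti-CD9 Ab library. Some of them, such as Cxcl1, Nos2 and Map3k8, had 0 UMIs with control Ab and were set against 3 counts. In macrophage-like cells some genes also passed it through that library. Among them were Cxcl1 (0 UMIs with control Ab), Nos2, Ptgs2 and Il12a (2 each) and Tnfrsf9 (3). Such genes do not support a direction in the macrophage-like counts, including those of induced genes below. Median log2 ratios were 0.32, 0.66, 1.18 and 0.10. The list was drawn up with earlier results of these libraries known, so that its direction is not independent evidence.
Of the genes that NF-kB is known to induce, 12 of 17, 15 of 19, 15 of 19 and 8 of 14 were at least 2-fold higher in the same order of classes, with median ratios of 1.80, 2.21, 2.72 and 1.46. The 8 in T cell-like cells were Cxcl2, Ccl3, Ccl4, Gadd45b, Ier3, Tnfaip2, Lcn2 and Saa3. Of these, Cxcl2, Tnfaip2 and Ier3 were near or below the neutrophil proportion and Saa3 above it, as given further on. The T cell-like counts therefore do not separate T cell transcripts from RNA of neutrophils or of other cells. Inhibitors and feedback genes gave 4 of 16, 7 of 16, 10 of 15 and 1 of 15. Adaptors and ligases gave 1 of 15, 2 of 15, 3 of 14 and 0 of 15, other ligands 2 of 4, 3 of 5, 2 of 6 and 1 of 8, other receptors 2 of 11, 4 of 12, 4 of 8 and 3 of 9, and kinases 2 of 11, 2 of 11, 3 of 10 and 0 of 11. The other 4 subunit genes, Rela, Relb, Rel and Nfkb2, named here after their values were seen, gave 0, 1, 3 and 0 past 2-fold. In macrophage-like cells Nfkb2 (p100) was at 1.05 (0.51 to 1.64) and Rela at 0.14 (−0.24 to 0.53).
In microglia-like cells the highest ratios were those of the chemokine gene Cxcl2 (3.78 and 390 CPM, 6.69), Nos2 (inducible nitric oxide synthase, 5.66), Lcn2 (lipocalin 2, 5.35), Ptgs2 (cyclooxygenase 2, 4.83) and Saa3 (serum amyloid A3, 161 and 4025 CPM, 4.64). Nos2 and Ptgs2 rested on 5 and 10 UMIs with control Ab. At the neutrophil ratio Cxcl2 would be at 318 of the 390 CPM, Lcn2 at 112 of 307 CPM and Saa3 at 25.7 of 4025 CPM. Cxcl2 in microglia-like cells was thus near the neutrophil proportion and Saa3 far above it. Saa3 was at 18578 CPM in macrophage-like cells with anti-CD9 Ab, and stray RNA of those cells was not tested. The lowest were Ltb (lymphotoxin beta, −1.03), Il1r1 (−0.88), Il6st (−0.64), Otulin (−0.48) and Fadd (−0.42, −1.27 to 0.35).
In macrophage-like cells Nos2 (1.42 and 309 CPM, 7.77), Ptgs2 (5.4), Cxcl2 (4.77), Lcn2 (4.74) and Il1b (61.7 and 1335 CPM, 4.44) were highest, and Ltb (−1.36), Tnfsf13b (BAFF, −1.14), Fadd (−0.80, −1.56 to 0.02), Il6st (−0.72) and Otulin (−0.59) lowest. Here Nos2 (5.91 to 10.81) and Ptgs2 (3.54 to 8.45) each rested on 2 UMIs with control Ab. Nos2 at the neutrophil ratio would be at 1.61 CPM and Cxcl2 at 247 of 387 CPM. In neutrophil-like cells Il1a (5.31), Saa3 (5.13), Cxcl2 (854 and 17591 CPM, 4.37), Ikbke (4.19) and Traf1 (4.06) were highest, of which all but Cxcl2 had 1 to 3 UMIs with control Ab. Tnfsf14 (−1.58), Map3k14 (NIK, −1.51), Otulin (−1.27), Tnip2 (−1.23) and Tnfaip8l2 (−1.02) were lowest, on 3 to 8 UMIs with control Ab, and the intervals of Tnfsf14, Tnip2 and Tnfaip8l2 included 0.
In T cell-like cells Cxcl2 (1.23 and 272 CPM, 7.79), Tnfaip2 (7.27), Il1b (1.03 and 142 CPM, 7.11), Saa3 (4.76) and Ier3 (2.88) were highest. With control Ab, Tnfaip2 rested on 1 UMI, Il1b on 5 and Cxcl2 on 6. The neutrophil ratio would give 341 CPM of Cxcl2, 27.0 of 31.7 CPM of Tnfaip2, 164 CPM of Il1b, 27.5 of 322 CPM of Saa3 and 27.4 of 31.7 CPM of Ier3. Cxcl2 and Il1b, genes of myeloid cells, were thus below that proportion in T cell-like cells, and Saa3 above it. The proportion covers neutrophil RNA only. Stray RNA of macrophage-like cells, where Saa3 was at 18578 CPM with anti-CD9 Ab, was not tested. The lowest were Cd40lg (CD40 ligand of activated T cells, 78.7 and 40.4 CPM, −0.96), Nfkbid (−0.78), Tnfaip8l2 (−0.78), Tnfsf14 (−0.73) and Tnfsf11 (RANKL, −0.50), all with intervals below 0.

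Over the 16 levels of 8 classes in 2 libraries, the genes whose log2(CPM + 10) profile was most like that of Tnf were Azi2 (Pearson r = 0.895), Tgoln1 (0.885) and Mir155hg (0.856), among 9354 genes. For Nfkbia they were Mcl1 (0.942), Ehd1 (0.938) and Srgn (0.934), and for Il10 Gm20234 (0.850), Cd69 (0.817) and Dusp2 (0.792). These points share libraries and depth and are given as a description.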

How the data were processed

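The deposited matrices hold UMI counts per gene and cell barcode, which the authors made with Cell Ranger (8.0.0 and GRCm39 per the submitters' processing notes; the study's methods name an earlier version and build). No normalization had been applied. Barcodes with 200 to 7500 genes and at most 2% mitochondrial counts were kept (60.98% of 12245 barcodes in the control Ab library, 60.38% of 15173 in the anti-CD9 Ab library), with 24939507 and 22663703 UMIs. Both libraries shared 54 barcodes, 18 among kept cells. Doublets were scored and marked (9.79% and 12.1% of kept cells) but not removed, except in an alternative. Cells were integrated and clustered in Seurat 5.3.0 (R 4.3.3, Matrix 1.6.5; 2000 variable genes, 30 dimensions, resolution 0.8), with 118 genes (the members, 88 pathway genes and 20 immediate-early genes) left out of the variable genes. Clusters were named from marker lists, with naming limits set after the data were seen, and 7 clusters (1322 and 2480 cells) stayed unnamed.

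Counts were summed per class and library in Python 3.11.15 (SciPy 1.17.1, scikit-learn 1.9.0, pandas 2.3.3 and NumPy 2.4.6). The ratio intervals were checked only on simulated independent Poisson counts. In the data UMIs can gather in single cells, as for 24 of the 570 T cell-like Tnf UMIs with anti-CD9 Ab. The simulated counts do not cover such gathering. Genes needed at least 50 UMIs over both libraries, and the first row was used of 26 symbols that occur more than once. edgeR 4.0.16 gave only TMM factors for an alternative. The members and gene lists were chosen with earlier results of these data known. Named are all members, the 5 highest and 5 lowest pathway genes per main class, the highest and lowest immediate-early gene, the 3 leading genes of a cluster, and the 3 genes most like Tnf, Nfkbia and Il10 (genes with at least 500 UMIs). Promoter sequences came from RefSeq on GRCm38.p6, another build than that of the counts, and no coordinates were converted.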

Additional observations from a re-analysis of the deposited data

Results flagged for a closer look

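Tnf had opposite directions between classes. Its log2 ratio between antibodies (positive where higher with anti-CD9 Ab) was 1.39 in macrophage-like, 1.13 in microglia-like and 3.12 in neutrophil-like cells and −0.45 in T cell-like cells. The microglia-like ratio of Tnf did not hold without integration, and the neutrophil-like one rested on 7 UMIs with control Ab. The T cell-like ratio was smaller in size without the cycling cluster 19. Tnfrsf1a was at 0.38 in macrophage-like and −0.24 in microglia-like cells. With 1 library per antibody, the differences between classes were not tested.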

How the results depend on the processing

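Of 618 values of single genes and shares under the alternatives, 537 stayed within the counting interval of the reported value, 73 moved outside it and 8 took the other direction from a value whose interval excluded 0. Without integration of the libraries the median log2 ratio of the members in microglia-like cells was 0.07 instead of 0.55, and the ratio was −0.06 for Tnf and −0.14 for Nfkbiz. The differences in thinned shares of microglia-like cells were then −2.09 percentage points for Tnf, −0.459 for Tnfaip3, −0.517 for Nfkbia and −2.48 for Nfkbiz. With up to 5% mitochondrial counts the share of macrophage-like cells with a Tnfrsf1a UMI differed by −0.385 percentage points, and in unthinned cells the share of T cell-like cells with a Tnf UMI differed by 0.95. Without predicted doublets the microglia-like median was 0.37. Pathway genes at least 2-fold higher in microglia-like cells (23) numbered 14 without integration, 12 without predicted doublets and 15 in cells thinned to 1000 UMIs. Pathway genes at least 2-fold lower in microglia-like cells (1) numbered 2 without integration, with up to 5% mitochondrial counts, with classes from marker levels, with at least 20 UMIs, with no filter and without cells holding S100a8, S100a9 or Retnlg, and 0 at resolution 1.5 and in thinned cells. In macrophage-like cells (2) they numbered 1 without integration, with up to 5% mitochondrial counts, with classes from marker levels, without predicted doublets and with TMM factors, 0 in thinned cells and 5 with no filter. In neutrophil-like cells (5) they numbered 8 with classes from marker levels, 0 with TMM factors and 3 in thinned cells, and in T cell-like cells (0) 1 without predicted doublets and in thinned cells. The cause of these shifts was not tested. The alternative without cells holding S100a8, S100a9 or Retnlg and the one without the cycling T cell-like cluster 19, which moved the T cell-like Tnf ratio from −0.45 to −0.25, were chosen after seeing the data, and the former leaves no neutrophil-like value. No paired analysis was possible because each antibody had 1 library, which also left no library to leave out. The 65 neutrophil-like cells with control Ab, with 73808 UMIs in all, limit every neutrophil-like ratio.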

Other observations

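Several unnamed clusters also held Tnf. Cluster 9, led by Hilpda, Gdf15 and Gadd45b, was almost absent with control Ab (2 cells), and among its 666 cells with anti-CD9 Ab Tnf was at 375 CPM and Nfkbia at 3229 CPM. In cluster 4, led by Arg1, Hmox1 and F13a1 (33 and 1272 cells), Tnf was at 81.5 and 144 CPM, a ratio of 0.82 (−0.33 to 2.28), and Nfkbia at 340 and 936 CPM, a ratio of 1.46 (0.89 to 2.09). With anti-CD9 Ab, S100a8, S100a9 and Retnlg summed to 3832 CPM in cluster 4. At the neutrophil ratio its Nfkbia would be at 609 of the 936 CPM and its Tnf at 96.9 of the 144 CPM. The part of neutrophil RNA in these ratios was not tested. In the cycling cluster 21, led by Sdk1, Stmn1 and Top2a (62 and 56 cells), the Tnf ratio was 1.34 (0.65 to 2.04). In the unnamed cluster led by Gzma, Nkg7 and Cd8b1, Nfkbia was higher with anti-CD9 Ab (209 and 458 CPM, 1.13, 0.82 to 1.44) while Tnf was lower, as in T cell-like cluster 0.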
